A study of Rattus norvegicus with 21 samples.

Results

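The 3 genes described here are Adipoq (ENSRNOG00000001821), Lpl (ENSRNOG00000012181) and Fabp4 (ENSRNOG00000010805), which are widely read as adipocyte genes. They were chosen by identifier, as 3 of the 32754 genes in the count table, to ask how much fat was collected with each bladder. The symbols come with the chosen identifiers, because the count table carries identifiers alone and no rat table pairing them with symbols was used here. The study sequenced RNA from the full-thickness bladder of wild-type male Sprague Dawley rats, with 21 libraries in 7 groups of 3. Rats 6 to 7 weeks old had the spinal cord cut completely at thoracic segment T8 (SCI), and their bladders were taken 2, 8 or 16 weeks later. Uninjured controls were taken at 0, 2, 8 and 16 weeks. The labels name no drug for any group. Each library has a sample code of its own, but the labels do not state that each came from a separate animal, so the p-values measure only the spread between these samples. Total counts ranged from 8087726 to 15472537 per library with a median of 9584812, and 15225 genes had enough counts to be tested. Markers of bladder muscle, urothelium and other cell types could not be matched to identifiers, so the labelled tissue was not checked against them.

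Adipoq encodes adiponectin, a hormone that is made almost exclusively by adipocytes. Lpl encodes lipoprotein lipase, which releases fatty acids from circulating triglycerides at the capillary wall, and it is made by muscle cells and macrophages as well as by adipocytes. Fabp4 encodes a fatty acid-binding protein that is abundant in adipocytes and is also present in capillary endothelium and macrophages. Fat lies around the bladder and along its ureters and vessels, so a bladder taken at full thickness can carry a variable amount of it. In bulk RNA of this kind, fewer adipocytes and less RNA per adipocyte cannot be told apart.

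RefSeq promoter sequence was matched for 1 of the 3 genes, Adipoq, and is shown as the start site of the gene that is most specific to adipocytes. The 250 bases before the annotated start of Adipoq lie on the minus strand at chr11:91240170-91240419 of the assembly GRCr8 and are written 5′ to 3′, with capitals marking the CCAAT box on either strand.
Adipoq: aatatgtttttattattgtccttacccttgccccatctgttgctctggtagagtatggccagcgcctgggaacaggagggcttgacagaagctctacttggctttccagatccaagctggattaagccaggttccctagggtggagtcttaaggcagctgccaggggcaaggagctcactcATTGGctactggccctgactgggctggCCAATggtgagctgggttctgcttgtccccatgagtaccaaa
The letters CCAAT were found at 2 places, 69 and 42 bases before the start, once in each orientation. The same search found CCAAT in 34.0% of 33469 rat promoters of this length. The letters TATAAA, searched on both strands, were not in this window and were in 12.9% of the promoters.

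Adipoq was the most variable of the 3 genes from bladder to bladder. Its level is given as CPM, the counts of the gene scaled to a fixed library total, with library totals adjusted by TMM (edgeR's trimmed mean scaling). Across the 21 libraries it ranged from 0.697 to 42.6 CPM with a median of 10.7, a 61.2-fold range that rested on 7 to 439 counts. In the 0-week controls Adipoq was at 8.59, 6.93 and 39.6 CPM. In the 2-week controls it was at 2.14, 28.4 and 1.42 CPM. A single bladder was far above the other two in each of these groups. In the 8-week controls Adipoq was at 13.2, 13.6 and 28.6 CPM. In the 16-week controls it was at 20.2, 6.06 and 42.6 CPM, which includes the highest level of the series. No control group stood clear of another.

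After SCI the Adipoq levels were as scattered. At 2 weeks after SCI they were 0.912, 20.2 and 11.6 CPM, and the lowest of these rested on 9 counts, with a 95% exact binomial interval of 0.432 to 1.79 CPM scaled to library size. At 8 weeks they were 37.7, 3.71 and 10.7 CPM. At 16 weeks they were 7.03, 0.697 and 3.00 CPM. The highest of the 16-week SCI bladders lay above the lowest of the 16-week controls, so these groups overlapped. The lowest level of the series, in replicate 2 at 16 weeks after SCI, rested on 7 counts with an interval of 0.282 to 1.45 CPM, and replicate 1 at 8 weeks after SCI rested on 439 counts with an interval of 37.1 to 44.9 CPM. These intervals cover counting error only, and they are wide for the bladders with the fewest counts, so the 61.2-fold range depends on a level known only roughly.

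**Figure D1:**
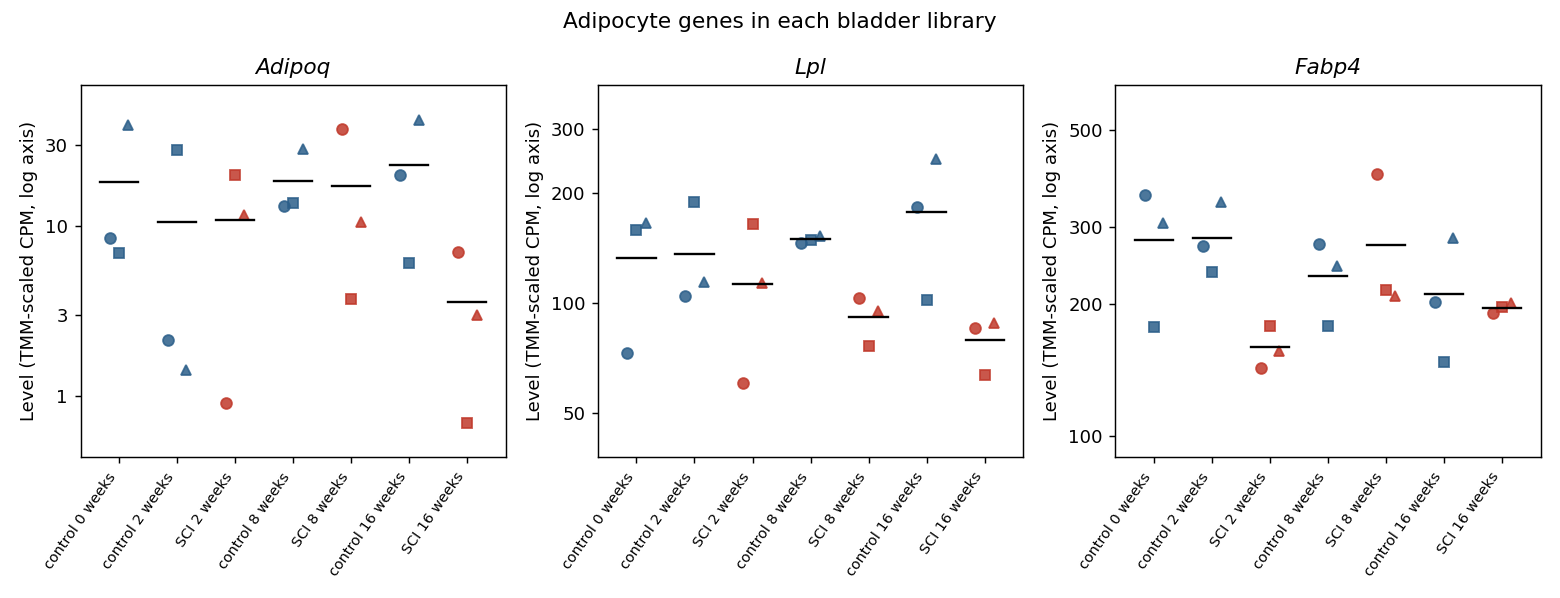
TMM-scaled CPM of Adipoq, Lpl and Fabp4 on a log axis in each of the 21 bladders by group, with controls in blue, SCI in red, the 3 replicates as circle, square and triangle, and the group mean as a black bar. The Adipoq points within single groups spread from 2.16-fold to 22.2-fold, whereas the Lpl points of the 8-week controls lie almost on each other.

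The SDs of Adipoq were close to the group means or above them in most groups, and relative to the mean the SD was smallest in the 8-week controls. The means were 18.4 ± 18.4 CPM (SD, n = 3) in the 0-week controls, 10.6 ± 15.4 in the 2-week controls, 18.5 ± 8.74 in the 8-week controls and 22.9 ± 18.4 in the 16-week controls. After SCI they were 10.9 ± 9.67 CPM at 2 weeks, 17.3 ± 17.9 at 8 weeks and 3.58 ± 3.20 at 16 weeks (SD, n = 3 each). From high to low the groups were ordered as the 16-week, 8-week and 0-week controls, SCI at 8 weeks, SCI at 2 weeks, the 2-week controls and SCI at 16 weeks. No pair of neighbours in this order differed by more than the larger of their SDs, and every pair of neighbours overlapped.

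Lpl was at a higher count and varied less. It ranged from 60.4 to 247.8 CPM with a median of 113.5, a 4.10-fold range that rested on 596 to 2767 counts. In the 0-week controls Lpl was at 73.1, 158.9 and 166.1 CPM. In the 2-week controls it was at 104.3, 189.4 and 114.2 CPM. The 2-week control with the most Lpl was the one with the most Adipoq. The 8-week controls were at 146.2, 148.9 and 153.2 CPM, the closest agreement of Lpl within any group. The 16-week controls were at 183.4, 101.8 and 247.8 CPM, in the same order as their Adipoq levels.

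The Lpl levels after SCI were lower on the whole. They were 60.4, 164.2 and 113.5 CPM at 2 weeks, within the range of the 0-week and 2-week controls apart from the lowest bladder. At 8 weeks they were 103.1, 76.2 and 94.8 CPM. At 16 weeks they were 85.4, 63.6 and 88.1 CPM. At 8 and at 16 weeks every SCI bladder was below every control bladder of the same week, as was the case for 14.7% and 18.3% of all tested genes. The Lpl group means were 132.7 ± 51.7, 136.0 ± 46.5, 149.4 ± 3.54 and 177.7 ± 73.2 CPM in controls at 0, 2, 8 and 16 weeks, and 112.7 ± 51.9, 91.4 ± 13.8 and 79.0 ± 13.4 CPM after SCI at 2, 8 and 16 weeks (SD, n = 3 each). From high to low the order was the controls at 16, 8, 2 and 0 weeks and then SCI at 2, 8 and 16 weeks, and no pair of neighbours differed beyond the larger SD.

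Fabp4 had the narrowest range, from 142.8 to 395.9 CPM with a median of 208.6, which is 2.77-fold and rested on 1409 to 4613 counts. Its levels were 355.5, 177.6 and 306.2 CPM in the 0-week controls. They were 271.7, 236.6 and 341.8 CPM in the 2-week controls. The 2-week control with the least Adipoq, replicate 3, had the most Fabp4 of its group. Fabp4 was at 273.5, 177.7 and 244.6 CPM in the 8-week controls and at 201.9, 147.5 and 283.3 CPM in the 16-week controls. These 4 control groups overlapped.

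After SCI, Fabp4 was at 142.8, 178.5 and 156.5 CPM at 2 weeks, all below the 2-week controls, an order that 8.43% of all tested genes had. It was at 395.9, 215.6 and 208.6 CPM at 8 weeks. It was at 190.4, 196.8 and 201.5 CPM at 16 weeks. The 16-week SCI bladders lay close together and inside the range of the 16-week controls. The Fabp4 group means were 279.8 ± 91.8, 283.4 ± 53.6, 231.9 ± 49.2 and 210.9 ± 68.3 CPM in controls at 0, 2, 8 and 16 weeks, and 159.3 ± 18.0, 273.3 ± 106.2 and 196.2 ± 5.54 CPM after SCI at 2, 8 and 16 weeks (SD, n = 3 each). From high to low the order was the 2-week and 0-week controls, SCI at 8 weeks, the 8-week and 16-week controls, SCI at 16 weeks and SCI at 2 weeks. The last 2 groups were the only neighbours whose means differed by more than the larger SD.

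The spread between bladders of a group set Adipoq apart from most of the transcriptome. The SD within groups was 1.66 on the log2 CPM scale for Adipoq, and 8 of the 15225 tested genes had a larger one. It was 0.50 for Lpl, with 1716 genes above it, and 0.37 for Fabp4, with 3488 genes above it, where the median gene had 0.22. The biological coefficient of variation that edgeR estimated was 0.906 for Adipoq, 0.300 for Lpl and 0.236 for Fabp4. No p-value belongs to these spreads, which are a description of the 21 libraries.

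**Figure D2:**
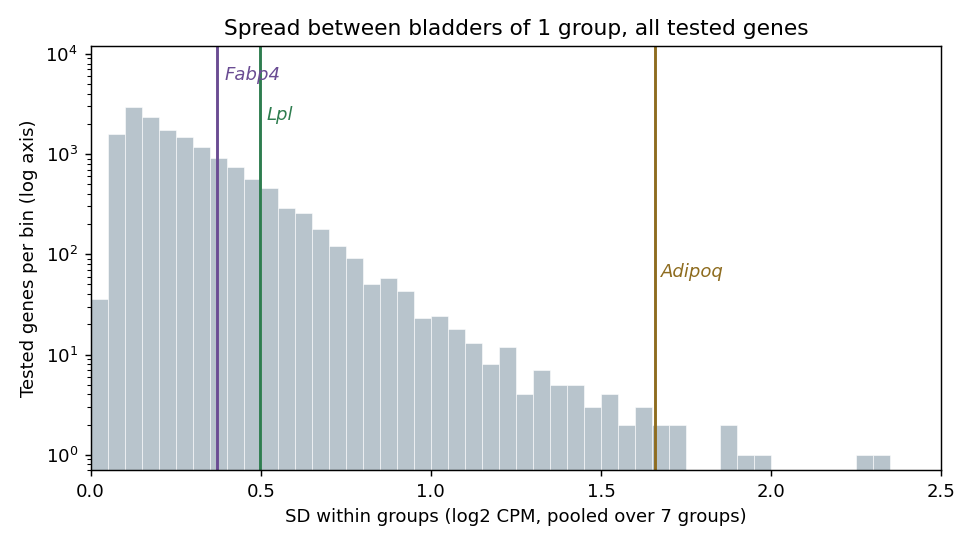
Histogram of the SD within groups on the log2 CPM scale (x axis) over the 15225 tested genes (y axis, number of genes, log scale), with vertical lines at Adipoq, Lpl and Fabp4. Adipoq lies at 1.66 in the far right tail, while Lpl at 0.50 and Fabp4 at 0.37 lie in the upper part of the main body.

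The levels were then compared between SCI and control bladders of the same week, which asks whether injury changed the adipocyte signal. At 2 weeks none of the 3 genes passed the test, as none of the 15225 tested genes did (0%). Adipoq differed by -0.00053 on the log2 scale (SE 1.09, SCI minus control; adjusted p = 1, edgeR quasi-likelihood test with Benjamini-Hochberg adjustment). The sign of that value turned to 2.60 without replicate 2 of the 2-week controls and was -0.82 without replicate 2 of the 2-week SCI group. Lpl differed by -0.27 (SE 0.35; adjusted p = 0.970, edgeR). Fabp4 differed by -0.83 (SE 0.28; unadjusted p = 0.00757, adjusted p = 0.453, edgeR), with a fold of 0.562. Of the 3 genes, 1 had an unadjusted p under 0.05, against 6.67% of all tested genes, and DESeq2 called none of the 3 and 0.42% of all tested genes. Fabp4 was the only 1 of the 3 whose SCI bladders were all lower than the controls, a pattern that 8.43% of all tested genes had.

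At 8 weeks none of the 3 genes passed the test, in a comparison where 8.41% of all tested genes did. Adipoq differed by -0.07 (SE 1.05; adjusted p = 0.974, edgeR), and this value ranged from -1.34 without replicate 1 of the 8-week SCI group to 0.39 without replicate 2 of that group. Lpl differed by -0.71 (SE 0.36; unadjusted p = 0.0620, adjusted p = 0.203, edgeR), a fold of 0.612. Fabp4 differed by 0.24 (SE 0.27; adjusted p = 0.613, edgeR). None of the 3 had an unadjusted p under 0.05, where 28% of all tested genes did, and DESeq2 called none of the 3 and 12.9% of all tested genes. Lpl was the only 1 of the 3 that was lower in every SCI bladder, as were 14.7% of all tested genes.

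At 16 weeks none of the 3 passed the edgeR test either, while 5.62% of all tested genes did. Adipoq differed by -2.71 (SE 1.21; unadjusted p = 0.0385, adjusted p = 0.163, edgeR), a fold of 0.153 with overlapping groups, and this value was -1.94 without replicate 3 of the 16-week controls and -3.68 without replicate 1 of the 16-week SCI group. Lpl differed by -1.17 (SE 0.36; unadjusted p = 0.00440, adjusted p = 0.0591, edgeR), a fold of 0.445. Fabp4 differed by -0.10 (SE 0.27; adjusted p = 0.841, edgeR). With an unadjusted p under 0.05 there were 2 of the 3, Adipoq and Lpl, beside 26.6% of all tested genes. DESeq2 called 1 of the 3, Lpl, at an adjusted p of 0.0193, beside 10.8% of all tested genes. Lpl alone of the 3 was lower in every 16-week SCI bladder, as were 18.3% of all tested genes. Over the alternative settings the adjusted p of Lpl at 16 weeks ran from 0.0193 to 0.222. Of the 21 edgeR fits that left out 1 library each, only 4 called Lpl, and its adjusted p over the 21 ran from 0.0358 to 0.165. In these 4 it was 0.0358 without replicate 1 and 0.0456 without replicate 2 of the 0-week controls. It was 0.0360 without replicate 2 of the 16-week controls and 0.0495 without replicate 2 of the 2-week SCI group, in the edgeR test. These 4 fits called 10%, 11.2%, 3.32% and 5.61% of all genes tested, in the same order. For 1 gene with 3 bladders in each arm, the smallest p of an exact permutation test is 0.1.

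**Figure D3:**
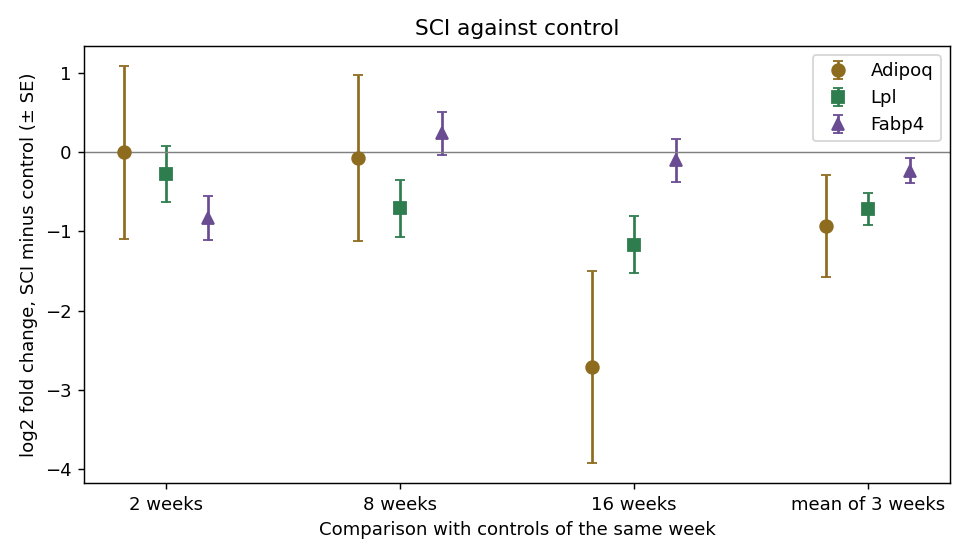
Log2 fold change of SCI over control (y axis) with its SE as a bar, for Adipoq, Lpl and Fabp4 at 2, 8 and 16 weeks and for the mean of the 3 weeks (x axis). Lpl lies below 0 at each week with -0.27, -0.71 and -1.17, and the Adipoq bars, with SEs of 1.05 to 1.21, are longer than those of the other genes at every week.

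Lpl was lower after SCI on average over the 3 weeks. The mean of the 3 SCI-control differences, a comparison added after the levels had been seen, was -0.72 on the log2 scale for Lpl (SE 0.21; adjusted p = 0.0193, edgeR), a fold of 0.608. This call held in every alternative setting fitted across all genes, with adjusted p from 0.00443 to 0.0408. The background was wide, as 22.7% of all tested genes passed in this comparison. Adipoq differed by -0.93 (SE 0.65; adjusted p = 0.312, edgeR) and Fabp4 by -0.23 (SE 0.16; adjusted p = 0.301, edgeR), and neither passed. The Adipoq value was -0.062 without replicate 2 of the 2-week controls and -1.35 without replicate 1 of the 8-week SCI group. DESeq2 also called Lpl alone of the 3, at an adjusted p of 0.00443, beside 25.7% of all tested genes.

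The same question was put to each gene alone, with an exact two-sided permutation test of the SCI and control labels within weeks over 8000 arrangements. This test was not planned, and it takes up the comparison that was added after the levels had been seen. Lpl gave a mean difference of -0.71 (p = 0.00525, adjusted over the 3 genes 0.0158, exact permutation test), from week differences of -0.33, -0.72 and -1.09. Adipoq gave -0.94 (p = 0.267, exact permutation test), from week differences of 0.44, -0.58 and -2.68, which did not share a sign. Fabp4 gave -0.23 (p = 0.25, exact permutation test), from -0.82, 0.19 and -0.053. These are differences between group means of log2 CPM, which for Adipoq differ from the values fitted to the counts by edgeR, -0.00053 at 2 weeks and -0.07 at 8 weeks. The smallest p this design allows is 0.00025.

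Whether the SCI-control difference itself changed with time was tested by interaction terms. From 2 to 8 weeks none of the 3 genes passed (0.0197% of all tested genes did), and DESeq2 called none of the 3 and 0.177% of all tested genes. Fabp4 gave the largest term relative to its error, 1.07 (SE 0.39; unadjusted p = 0.0132, adjusted p = 0.504, edgeR), and was 1 of the 3 with an unadjusted p under 0.05, beside 8.59% of all tested genes. The terms of Adipoq and Lpl were -0.07 (SE 1.51) and -0.44 (SE 0.50). Without replicate 2 of the 2-week controls that Lpl term was -0.75, and without replicate 2 of the 2-week SCI group it was -0.061. From 2 to 16 weeks no tested gene passed (0%), and the terms were -2.71 for Adipoq (SE 1.64; adjusted p = 0.675, edgeR), -0.90 for Lpl (SE 0.50; adjusted p = 0.669, edgeR) and 0.73 for Fabp4 (SE 0.39; adjusted p = 0.659, edgeR). From 8 to 16 weeks no tested gene passed (0%) and the terms were -2.64, -0.46 and -0.34. The Adipoq term from 2 to 16 weeks was -5.32 without replicate 2 of the 2-week controls, -3.68 without replicate 1 of the 16-week SCI group, -1.94 without replicate 3 of the 16-week controls and -1.90 without replicate 2 of the 2-week SCI group. Its term from 8 to 16 weeks was -3.60 without replicate 1 of the 16-week SCI group, -1.87 without replicate 3 of the 16-week controls and -1.36 without replicate 1 of the 8-week SCI group. In both of the later terms none of the 3 genes had an unadjusted p under 0.05, where 7.75% of all tested genes did from 2 to 16 weeks and 6.63% from 8 to 16 weeks. DESeq2 called none of the 3 in either term, and 0.0394% and 0.105% of all tested genes. The Lpl term from 2 to 16 weeks was -1.22 without replicate 2 of the 2-week controls and -0.59 without replicate 3 of the 16-week controls. The fall of the Lpl difference from -0.27 to -1.17 over the weeks is therefore not shown to be a change with time.

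Between control groups the 3 genes gave no call. Adipoq differed by -0.73 (SE 1.06) from 0 to 2 weeks, by 0.76 (SE 1.07) from 2 to 8 weeks and by 0.31 (SE 1.04) from 8 to 16 weeks. Without replicate 2 of the 2-week controls the first of these was -3.33 and the second 3.36, without replicate 3 of the 0-week controls the first was 0.49, and without replicate 3 of the 16-week controls the last was -0.46. Lpl differed by 0.04, 0.13 and 0.25 and Fabp4 by 0.02, -0.29 and -0.14 on the log2 scale over the same steps, with SEs of 0.27 to 0.35. The share of all tested genes that passed was 0% from 0 to 2 weeks, 0% from 2 to 8 weeks and 0.0788% from 8 to 16 weeks by edgeR. None of the 3 genes had an unadjusted p under 0.05 in these steps, where 13.4%, 18.9% and 9.5% of all tested genes did. DESeq2 called none of the 3 in these steps, and 0.309%, 1.64% and 0.677% of all tested genes. Consecutive steps share the control group between them.

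Between SCI groups the 3 genes gave no call either. From 2 to 8 weeks after SCI none of the 3 genes passed in edgeR or DESeq2 (0.0131% of all tested genes passed in edgeR and 0.144% in DESeq2). Fabp4 was higher in every 8-week SCI bladder than in any 2-week one, by 0.78 (SE 0.28; unadjusted p = 0.0112, adjusted p = 0.902, edgeR) or 1.72-fold, and 5.27% of all tested genes had this order. It was the only 1 of the 3 with an unadjusted p under 0.05, against 4.49% of all tested genes. From 8 to 16 weeks after SCI no tested gene passed (0%), and none of the 3 had an unadjusted p under 0.05 (1.81% of all tested genes did) or a DESeq2 call (0.00657% did). In this step Adipoq differed by -2.33 (SE 1.22; unadjusted p = 0.0720, adjusted p = 1.00, edgeR), which became -1.05 without replicate 1 of the 8-week SCI group and -3.30 without replicate 1 of the 16-week SCI group. Fabp4 was lower in every 16-week SCI bladder, by -0.48 (SE 0.27; unadjusted p = 0.0984, adjusted p = 1.00, edgeR), as were 3.95% of all tested genes. A joint test over the 7 groups gave adjusted p of 0.568 for Adipoq, 0.157 for Lpl and 0.168 for Fabp4 (edgeR), so none of the 3 passed where 13.6% of all tested genes did.

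The 3 genes were then compared with each other across bladders, to ask whether they reported the same differences in fat, and the levels of Adipoq and Lpl varied together. Over the 21 libraries the log2 CPM values of Adipoq and Lpl correlated with Pearson's r = 0.75 (permutation p = 0.00014, adjusted over the 3 pairs 0.00042) and Spearman's rho = 0.73 (permutation p = 0.00043, adjusted 0.00129). Without the 2 bladders farthest from the median Adipoq level, r was 0.63 (permutation p = 0.00364). The relation was present in both arms, with r = 0.69 among the 12 controls (permutation p = 0.0124, adjusted 0.0373) and r = 0.84 among the 9 SCI bladders (exact permutation p = 0.00462, adjusted 0.0139). Expressed as deviations from the group means, the values had r = 0.80. All these values share libraries and scaling factors, and log2 total counts had r = 0.15 with Adipoq (permutation p = 0.535) and 0.28 with Lpl (permutation p = 0.225).

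Fabp4 was not shown to follow either of them. Adipoq and Fabp4 had r = 0.30 (permutation p = 0.187, adjusted 0.281) and rho = 0.37 (permutation p = 0.101) over the 21 libraries. Without the 2 farthest bladders r was 0.14 (permutation p = 0.576). It was -0.05 among controls (permutation p = 0.871) and 0.53 after SCI (exact permutation p = 0.144). Lpl and Fabp4 had r = 0.16 (permutation p = 0.479) and rho = 0.20 (permutation p = 0.392). Among Adipoq and Fabp4, r reached 0.46 (permutation p = 0.0427) without replicate 3 of the 2-week controls, the bladder with 1.42 CPM of Adipoq and 341.8 CPM of Fabp4.

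**Figure D4:**
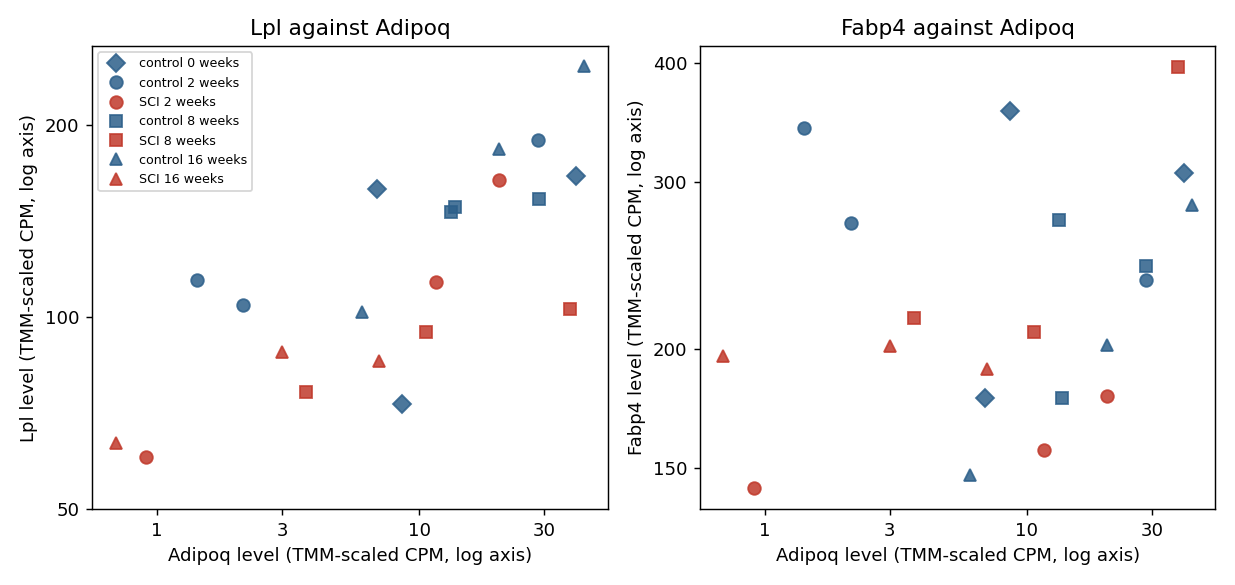
CPM of Lpl (left) and Fabp4 (right) against CPM of Adipoq in the 21 bladders, on log axes, with controls in blue, SCI in red and the marker shape giving the week. The Lpl points rise with Adipoq (r = 0.75) in both colours, while the Fabp4 points form a wide band (r = 0.30).

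Single bladders show how the 3 genes part. Replicate 3 of the 16-week controls ranked first of 21 for Adipoq, first for Lpl and 5 for Fabp4. Replicate 1 at 2 weeks after SCI ranked 20 for Adipoq and 21 for both Lpl and Fabp4. In these 2 bladders the genes were high or low together. Replicate 1 at 8 weeks after SCI ranked 3 for Adipoq and first for Fabp4 but 13 for Lpl. Replicate 1 of the 0-week controls ranked 12 for Adipoq and 2 for Fabp4 but 19 for Lpl. The bladder with the most Fabp4 was thus below the median for Lpl.

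A straight line through the linear levels gives a fitted Lpl level for an Adipoq level of 0, which single bladders did not match closely. Lpl was at 63.6 and 60.4 CPM in the SCI bladders with 0.697 and 0.912 CPM of Adipoq. It was at 114.2 and 104.3 CPM in the 2-week controls with 1.42 and 2.14 CPM of Adipoq. Over the 21 libraries Lpl followed 86.9 CPM plus 2.65 CPM for each CPM of Adipoq, and leaving out single libraries moved the intercept between 82.1 and 91.2 and the slope between 2.14 and 3.31. Among controls the line was 102.8 plus 2.62 per CPM. Among SCI bladders it was 77.9 plus 1.55 per CPM, with a slope between 0.979 and 4.80 when single libraries were left out. For Fabp4 the line was 200.4 plus 2.27 per CPM over all libraries, with a slope between 1.39 and 2.83 when single libraries were left out. Among controls the Fabp4 slope was 0.502, between -0.119 and 1.40 in the same way. Among SCI bladders it was 4.89 and became -0.375 without replicate 1 at 8 weeks. These lines are descriptions, with no test.

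The SCI-control differences were fitted once more with the log2 Adipoq level of each bladder as a covariate, a setting added after the data had been seen. At equal Adipoq, Lpl differed by -0.43 at 2 weeks, by -0.58 at 8 weeks (adjusted p = 0.0961, edgeR) and by -0.48 at 16 weeks (SE 0.26; adjusted p = 0.222, edgeR). The 16-week difference was thus -0.48 with the covariate and -1.17 without it. Over the mean of the 3 weeks Lpl differed by -0.49 (SE 0.14; adjusted p = 0.0141, edgeR) and passed with the covariate as well. The background was wide here too, as this fit called 4183 genes, against 3454 of 15225 (22.7%) without the covariate. Fabp4 differed by -0.90 at 2 weeks (adjusted p = 0.376, edgeR), by 0.26 at 8 weeks and by 0.14 at 16 weeks, and by -0.17 over the mean of the 3 weeks (adjusted p = 0.460, edgeR). Whether the Adipoq level itself responds to SCI cannot be told apart from the fat collected.

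With the covariate the number of genes called also changed for the whole table. At 8 weeks it was 1961 against 1281 without the covariate, and 1281 genes were called in both. At 16 weeks it was 1940 against 855, with 778 in both. Over the mean of the 3 weeks it was 4183 against 3454, with 3327 in both. At 2 weeks it was 0 in both fits, where 6.67% of all tested genes had an unadjusted p under 0.05 without the covariate.

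Few genes were called as moving with Adipoq within groups. In a fit of all genes on the Adipoq level and the group, 15 of 15224 genes passed (0.0985%), all with a positive slope, and 1349 had an unadjusted p under 0.05. Lpl had a slope of 0.24 log2 units per log2 unit of Adipoq (SE 0.05; unadjusted p = 6.61e-05, adjusted p = 0.0592, edgeR) and ranked 17 of the 15224, just outside the called genes. Its adjusted p was 0.00885 without replicate 1 and 0.00268 without replicate 2 of the 0-week controls, in fits that called 20 and 17 genes, and between 0.0568 and 0.256 without any other single library. Fabp4 had a slope of 0.08 (SE 0.05; unadjusted p = 0.149, adjusted p = 0.661, edgeR) and ranked 3431. The number of called genes ran from 9 to 20 when single libraries were left out.

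The genes whose pattern was most like each of the 3 were sought by Pearson's r of log2 CPM over the 21 libraries, among 13452 genes with an average of at least 1 on that scale. For Adipoq the nearest was the gene listed as ENSRNOG00000009153 with r = 0.97, at 0.0995 to 15.0 CPM. These levels rested on 1 to 175 counts, so the low end of this relation is known only roughly. In all 11 genes had an r over 0.8 with Adipoq, 5 of them over 0.9, and none had an r below -0.8. Lpl ranked 13 and Fabp4 786 in likeness to Adipoq. For Lpl the nearest was ENSRNOG00000056457 with r = 0.84, at 2.40 to 31.9 CPM, and 3 genes were over 0.8, while for Fabp4 no gene was. These correlations share libraries and scaling and are given with no test.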

How the data were processed

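The deposited table holds raw counts per gene, which the authors made from paired-end reads of 51 bases. The submitters' processing notes name FastQC 0.11.9, MultiQC 1.13, Trim Galore 0.6.10, STAR 2.7.10a, SAMtools 1.17, featureCounts 2.0.3 and the rat build Rnor_6.0. The annotation release and the strand setting are not given in the sources used here, so reads of overlapping genes may be shared. All 21 libraries were fitted together in edgeR 4.0.16 (R 4.3.3) as 7 groups after filterByExpr and TMM scaling (factors 0.903 to 1.09, 14 residual degrees of freedom), with quasi-likelihood tests, Benjamini-Hochberg adjustment over all tested genes and a threshold of 0.05. CPM values use TMM-scaled library sizes, and SEs of log2 fold changes are the coefficient divided by the square root of F. DESeq2 1.42.0 was an alternative, with other scalings, no low-count filter, only the groups compared, a block for the replicate number, and fits leaving out each library in turn. The mean over 3 weeks, the Adipoq covariate and the fit without 0-week controls were chosen after seeing the data. The exact permutation test within weeks, the fit of all genes on the Adipoq level within groups and the straight lines were not planned either. The 3 genes and all lists were chosen with earlier results of these data known. The named genes were these 3 and, for Adipoq and Lpl, the gene nearest by correlation. Lists of adipocyte, lipid and cell type genes were not run, because no table used here pairs the identifiers with symbols. The scripts were tested on simulated data for SCI against control at 8 weeks, where 179 of 200 genes changed 4-fold among 15073 were called with 7 unchanged genes, and for the interaction from 2 to 8 weeks, where 164 of 200 were called with 12 unchanged genes. No pair of libraries within a group agreed within sampling noise (chi-square per degree of freedom of at least 7.22).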

Additional observations from a re-analysis of the deposited data

How the results depend on the processing

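Of 1065 log2 fold changes refitted under alternatives, 1016 kept direction and side of the threshold, 41 changed sign with none called in either fit, and 8 became called. None of the 3 genes lost a call. For the mean of the 3 weeks, the fit of only the groups compared and the fit without the 0-week controls are the same fit and are counted separately here. The SD of Adipoq within groups, 1.66 on the log2 scale, limits the precision of its differences. At 2 weeks Adipoq became 0.038 with DESeq2, 0.0023 with DESeq2's size factors and 0.0069 with library size alone, and ranged from -0.82 to 2.60 with single libraries left out. At 8 weeks it became 0.13 with library size alone and 0.067 with the replicate block, and ranged from -1.34 to 0.39. Its interaction from 2 to 8 weeks became 0.13 with library size alone and 0.18 with the replicate block, and ranged from -2.68 to 0.74. Of the 3 genes, 1 (Lpl) was called at 8 weeks with only the groups compared (adjusted p = 0.0428, edgeR), in a fit that called 2.24% of all genes. At 16 weeks 1 (Lpl) was called with DESeq2, with only the groups compared (adjusted p = 0.0368, edgeR; 14.6% of all genes called) and without the 0-week controls (adjusted p = 0.0327, edgeR; 13.8% of all genes called), and 0 to 1 with single libraries left out. With the Adipoq covariate, Fabp4 at 16 weeks was 0.14, and Lpl was 0.11 for the interaction from 8 to 16 weeks, -0.26 for controls from 2 to 8 weeks and 0.28 for SCI from 8 to 16 weeks. The correlation of Adipoq with Fabp4 was -0.053 in controls and 0.18 to 0.46 with single libraries left out. That of Lpl with Fabp4 was -0.17 in controls and -0.063 without the 2 farthest bladders. The cause of these changes was not tested.

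Leaving out single libraries gave these further ranges that cross 0. For SCI against control they were -0.65 to 0.046 for Lpl at 2 weeks, -0.12 to 0.41 for Fabp4 at 8 weeks and -0.31 to 0.16 for Fabp4 at 16 weeks, and -0.54 to 0.027 for the Fabp4 interaction from 8 to 16 weeks. For controls from 0 to 2 weeks they were -3.33 to 0.49 for Adipoq, -0.27 to 0.24 for Lpl and -0.23 to 0.24 for Fabp4. For controls from 2 to 8 weeks it was -0.029 to 0.45 for Lpl. For controls from 8 to 16 weeks they were -0.46 to 0.77 for Adipoq, -0.061 to 0.53 for Lpl and -0.40 to 0.064 for Fabp4. For SCI from 2 to 8 weeks they were -0.59 to 1.504 for Adipoq and -0.61 to 0.069 for Lpl. Same-numbered samples did not deviate together, with correlations of -0.19 to 0.20 over the comparisons, and the replicate block changed no call among the 3 genes. With it Lpl was -1.16 at 16 weeks (adjusted p = 0.0514, edgeR) and -0.72 over the mean of the 3 weeks (adjusted p = 0.0172, edgeR).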
